A study of Rattus norvegicus with 12 samples.

Results

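The genes described here encode the matrix metalloproteinases (Mmp), the ADAM and ADAMTS metalloproteinases with the ADAMTS-like proteins, and the tissue inhibitors of metalloproteinases (Timp). Membership was decided by gene symbol alone, under a rule chosen with earlier results of these data known. Every probe whose symbol, without the suffix for a predicted or mapped gene, begins with a family name followed by a digit or a family letter code (as in Adamdec1 and Adamtsl4) was taken. This gave 63 probes for 61 genes of the 21684 genes on the array, namely 22 Mmp, 18 Adam or Adamdec, 18 Adamts or Adamtsl and 3 Timp genes. Adam10 and Adamtsl4 had several probes each, and the brightest over the 12 arrays stood for the gene. A further 6 probes that the file describes as similar to ADAM or ADAMTS genes carry other symbols and fall outside the rule.

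RNA came from bone marrow cells of male Wistar-Hannover rats, grown in culture to bone-forming osteoblasts or bone-resorbing osteoclasts, and was measured on Illumina expression arrays. The sham group had the spinal surgery without transection, with tissue taken 12 to 14 weeks later. The SCI group had a spinal cord transection. The series text describes SCI animals with sham stimulation, which had implant surgery and ablation of the gastrocnemius in week 14 but no stimulator unit, and were sampled in week 17. The SCI+FES group had a transection and a stimulator implanted in week 14, and functional electrical stimulation (FES) from week 16, for 60 minutes a day on 7 days, with contractions of 2 s and rests of 18 s at 40 Hz and 1.5 V. The sham and SCI groups therefore differ in the implant surgery and the time after surgery as well as in the transection, and these cannot be told apart. By this description the SCI and SCI+FES groups differ in the stimulator unit as well as in the stimulation, and these cannot be told apart either. Each treatment and culture type is represented by 1 RNA pool of 3 to 4 animals on 2 arrays, so there were 6 pools and 12 arrays. The sample identifier of the SCI osteoclast pool has the same number as those of both SCI+FES pools and differs from them in a letter, and whether these pools share animals cannot be told from the labels. Osteoblasts were labelled as day 10 of culture, and osteoclasts of sham and SCI+FES animals as day 3, with no day given for osteoclasts of SCI animals. Culture time and culture type cannot be told apart.

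Metalloproteinases hold a catalytic zinc and are made as inactive precursors. Matrix metalloproteinases cut collagens, elastin, proteoglycans and other matrix proteins, ADAM proteases mostly release membrane proteins from the cell surface, and ADAMTS proteases cut proteoglycans, procollagens and other matrix proteins. Timp proteins bind the active site and block it. In bone, osteoclasts make much Mmp9 along with the cysteine protease cathepsin K, and cells of the osteoblast line make the collagenase Mmp13 and the membrane-bound Mmp14.

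Probes detected per array ranged from 33.7% to 38.3%, and r between the duplicates of a pool was 0.992 to 0.995, taken over genes, which are no replicates. Levels are given as log2 of the background-corrected and quantile-normalized intensity. They compare pools for a gene and not genes with each other. Detection in a pool required that the probe's detection p-value did not exceed 0.01 on either of its arrays. Summed intensities of marker lists, given further on, add probes of unlike brightness, undetected ones included. A single bright gene can make up most of such a sum. The array SD was 0.13 on the log2 scale over the detected members. Mesenchymal markers fell in 7 of 7 tested genes in osteoclast cultures and osteoclast markers rose in 4 of 6 (limma). Of 9 osteoblast markers, 7, 5 and 3 were detected in the SCI, sham and SCI+FES osteoblast pools, while Sp7 and Runx2 were detected in no pool. All 9 macrophage markers on the array were detected in each osteoblast pool.

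Of the 61 genes, 22 were detected in at least 1 pool: 11 Mmp, 4 Adam, 5 Adamts or Adamtsl and 2 Timp genes. Both cultures held 11 of them, 10 were detected in osteoblast pools only and Mmp8 in osteoclast pools only. By pool, 21, 19 and 20 were detected in sham, SCI and SCI+FES osteoblast cultures, against 12, 10 and 11 in the osteoclast cultures in the same order. Detection over all genes differed less between culture types, with 7720 to 7997 genes in the osteoblast pools and 7068 to 7349 in the osteoclast pools. In the heat map of the detected genes by array, Mmp9 stands opposite to a block of genes that were high in all osteoblast pools.

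**Figure D1:**
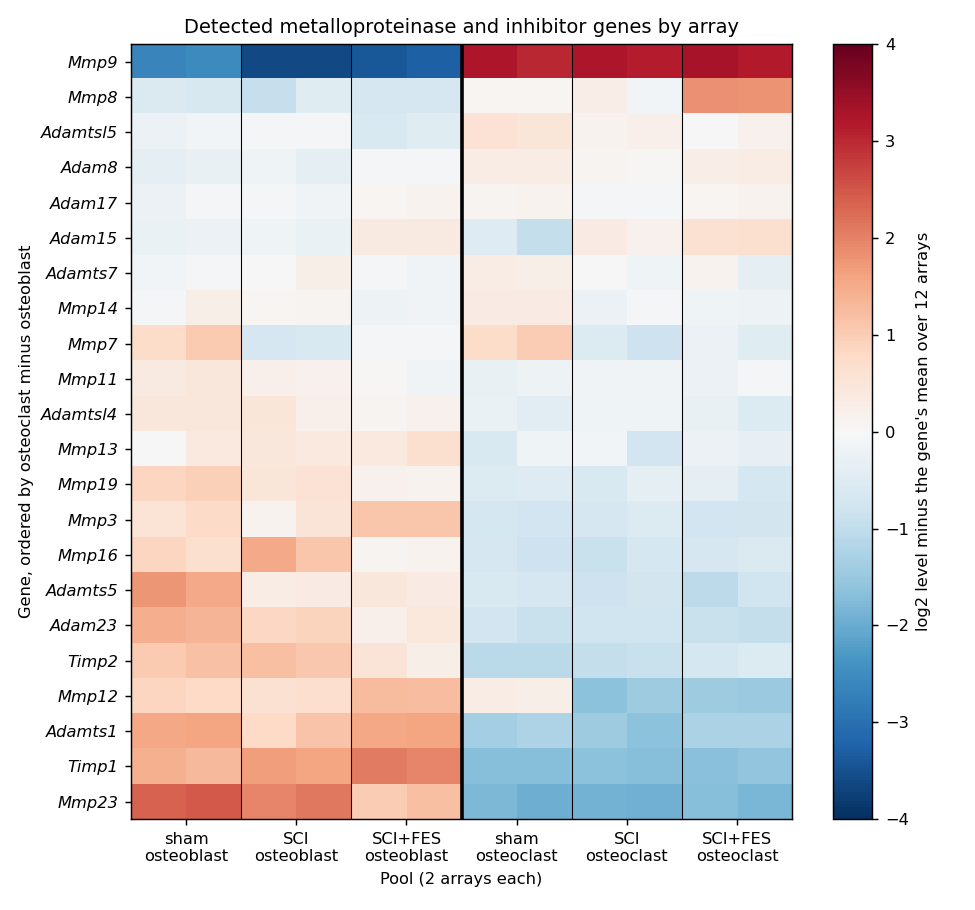
Heat map of the 22 detected genes (rows, ordered by osteoclast minus osteoblast) on the 12 arrays (columns, 2 for each pool), coloured by the log2 level minus the gene's mean over the arrays. Mmp9 is high on all osteoclast arrays, while Timp1, Mmp23 and Adamts1 are high on all osteoblast arrays.

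The other 39 genes were detected in no pool, 33 of them on no array. Among Mmp genes these were Mmp1a (now Mmp1), Mmp1b, Mmp2, Mmp10, Mmp15, Mmp17, Mmp20, Mmp21, Mmp25, Mmp27 and Mmp28. Among Adam genes they were Adam1a, Adam2, Adam3a, Adam6, Adam7, Adam10, Adam11, Adam12, Adam18, Adam24, Adam28, Adam32, Adam33 and Adamdec1, several of which are known for expression in testis or epididymis. Adamts3, Adamts4, Adamts6, Adamts8, Adamts9, Adamts12, Adamts13, Adamts14, Adamts15, Adamts16, Adamts17, Adamts19 and Adamts20 and the inhibitor gene Timp3 were not detected either. The probe of Mmp2, the gelatinase that Mmp14 activates, reached an intensity of 29.7 at most, and the brighter probe of Adam10, a major shedding protease, 37.4. At this signal a low level of these genes was not detectable, and the probes say nothing of transcripts they do not match.

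Of these genes, 10 lie side by side on chromosome 8 in RefSeq's gene table (assembly GRCr8), in the order Mmp13, Mmp12, Mmp1b, Mmp3, Mmp1a, Mmp10, Mmp8, Mmp27, Mmp20 and Mmp7, with 0 other protein-coding genes between them. Mmp13, Mmp12, Mmp3, Mmp8 and Mmp7 were detected. Their promoters are shown because these 5 genes gave different values between cultures and treatments, as described further on. Each RefSeq sequence (build GRCr8, all on the + strand) runs from 250 bases before to 50 bases after the annotated start, 5′ to 3′, over chr8:12782579-12782878, chr8:12866402-12866701, chr8:12925031-12925330, chr8:13008640-13008939 and chr8:13132793-13133092. Capitals mark matches to the AP-1 letters TGANTCA, on either strand, or to the TATA box letters TATAAA on the gene's strand. AP-1 is the Fos and Jun transcription factor, and an AP-1 site close to a TATA box is a textbook feature of many Mmp promoters.
Mmp13: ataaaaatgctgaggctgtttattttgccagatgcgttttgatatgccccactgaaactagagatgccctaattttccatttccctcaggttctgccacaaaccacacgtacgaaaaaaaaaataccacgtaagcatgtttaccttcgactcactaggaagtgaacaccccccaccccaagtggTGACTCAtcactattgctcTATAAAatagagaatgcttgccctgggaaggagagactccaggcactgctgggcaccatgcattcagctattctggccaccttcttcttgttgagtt
Mmp12: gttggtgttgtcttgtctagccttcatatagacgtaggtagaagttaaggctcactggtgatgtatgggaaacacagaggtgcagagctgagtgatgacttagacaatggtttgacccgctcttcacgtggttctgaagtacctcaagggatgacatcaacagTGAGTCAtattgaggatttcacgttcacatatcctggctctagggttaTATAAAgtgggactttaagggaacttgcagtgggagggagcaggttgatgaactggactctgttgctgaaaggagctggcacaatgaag
Mmp3: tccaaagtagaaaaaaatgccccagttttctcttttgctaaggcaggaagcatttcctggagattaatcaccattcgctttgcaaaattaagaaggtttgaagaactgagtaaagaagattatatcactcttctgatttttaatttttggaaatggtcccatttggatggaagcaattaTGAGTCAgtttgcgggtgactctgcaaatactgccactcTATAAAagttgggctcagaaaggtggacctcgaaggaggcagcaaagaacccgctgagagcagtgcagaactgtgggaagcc
Mmp8: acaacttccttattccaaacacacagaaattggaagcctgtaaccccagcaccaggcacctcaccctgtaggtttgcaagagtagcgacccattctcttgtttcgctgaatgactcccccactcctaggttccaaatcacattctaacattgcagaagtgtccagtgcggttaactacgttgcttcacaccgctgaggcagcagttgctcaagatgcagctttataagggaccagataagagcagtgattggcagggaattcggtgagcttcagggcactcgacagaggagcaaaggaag
Mmp7: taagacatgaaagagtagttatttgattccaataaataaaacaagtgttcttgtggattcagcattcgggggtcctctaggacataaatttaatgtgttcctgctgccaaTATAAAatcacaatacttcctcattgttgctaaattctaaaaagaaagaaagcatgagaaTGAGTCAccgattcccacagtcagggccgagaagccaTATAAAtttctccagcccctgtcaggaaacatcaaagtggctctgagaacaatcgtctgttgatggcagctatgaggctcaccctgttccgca

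Counted from the start site, the AP-1 letters began at position -66 in Mmp13, -87 in Mmp12, -71 in Mmp3 and -80 in Mmp7, and were not in the Mmp8 window. TATA box letters began at -47, -39, -32 and -43 in the same 4 genes, with a further match at -140 in Mmp7. Of all 33469 promoters of this length, 7.33% held the AP-1 letters and 8.8% the TATA box letters. Of the 10 neighbours, 7 held AP-1 letters and 7 TATA box letters, and these 7 included the undetected Mmp1a, Mmp10 and Mmp20. Outside the cluster, none of the other 11 detected genes with a promoter in the table held the AP-1 letters and Adamts1 held the TATA box letters. The RUNX letters TGNGGT, on either strand, were in the windows of Mmp13, Mmp12 and Mmp8 and of Mmp23, Timp1, Adamtsl4 and Adamtsl5, against 47.1% of all promoters. The PU.1 letters GAGGAA, on either strand, were in the window of Mmp7, against 27.6%. These matches overlap no other match in the 5 windows shown, and they are descriptions of sequence and not of binding.

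To examine how the proteases differ between the culture types, limma was fitted to the pool means, 3 from osteoclast against 3 from osteoblast cultures. The 3 pools of a culture type carry different treatments and stand in as its replicates, and nothing in the labels gives replicate pools of a treatment. A gene was called at an adjusted p of at most 0.05 (Benjamini-Hochberg over all 8913 detected genes) and at least 2-fold. In osteoclast cultures 1 of the 61 genes rose, Mmp9, and 10 fell. The genes that fell were the inhibitors Timp1 and Timp2, the proteases Mmp3, Mmp12, Mmp16, Mmp19, Mmp23, Adamts1 and Adamts5, and the protease-like Adam23. Over all genes tested, 4.91% were called higher and 6.7% lower, or 11.6% in either direction. Of the 10 calls of lower, 7 were in genes detected in osteoblast pools only, which had to be lower in osteoclast pools to pass the detection filter. Among the 11 genes detected in both cultures, 1 rose and 3 fell. In bulk cultures fewer cells of a type and less RNA per cell cannot be told apart.

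Mmp9, gelatinase B, showed the largest difference of the 22. Its levels in osteoclast cultures were 14.22 and 14.01 on the sham arrays, 14.22 and 14.13 on the SCI arrays and 14.30 and 14.16 on the SCI+FES arrays. In osteoblast cultures they were 8.37 and 8.45, 7.38 and 7.40, and 7.61 and 7.72 in the same order. The pools did not overlap, and the 3 osteoclast pools lay close together (SD 0.06, n = 3 pools) while the osteoblast pools spread more (SD 0.53, n = 3 pools). The difference was 6.35 ± 0.25 (SE), or 81.7-fold, with an adjusted p of 2.61e-05 by limma.

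The inhibitors moved the other way. Timp1, which blocks most secreted Mmp proteins, stood at 14.04 and 13.94, 14.30 and 14.22, and 14.72 and 14.58 on the sham, SCI and SCI+FES osteoblast arrays. On the osteoclast arrays it stood at 10.92 and 10.94, 10.98 and 10.92, and 10.96 and 11.06. It was detected on every array and was 10.1-fold lower in osteoclast cultures (-3.33 ± 0.17, adjusted p = 5.38e-05 by limma), with no overlap between cultures. Timp2, which also takes part in the activation of Mmp2 by Mmp14, was at 10.17 and 10.30, 10.32 and 10.20, and 9.63 and 9.36 in osteoblast cultures. In osteoclast cultures it was at 8.04 and 8.04, 8.16 and 8.22, and 8.43 and 8.57. The SCI+FES pools were the closest pair of cultures for Timp2, and the pools still did not overlap (-1.75 ± 0.24, 3.37-fold, adjusted p = 0.00243). Of the 3 Timp genes, 2 fell and Timp3 was not detected.

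**Figure D2:**
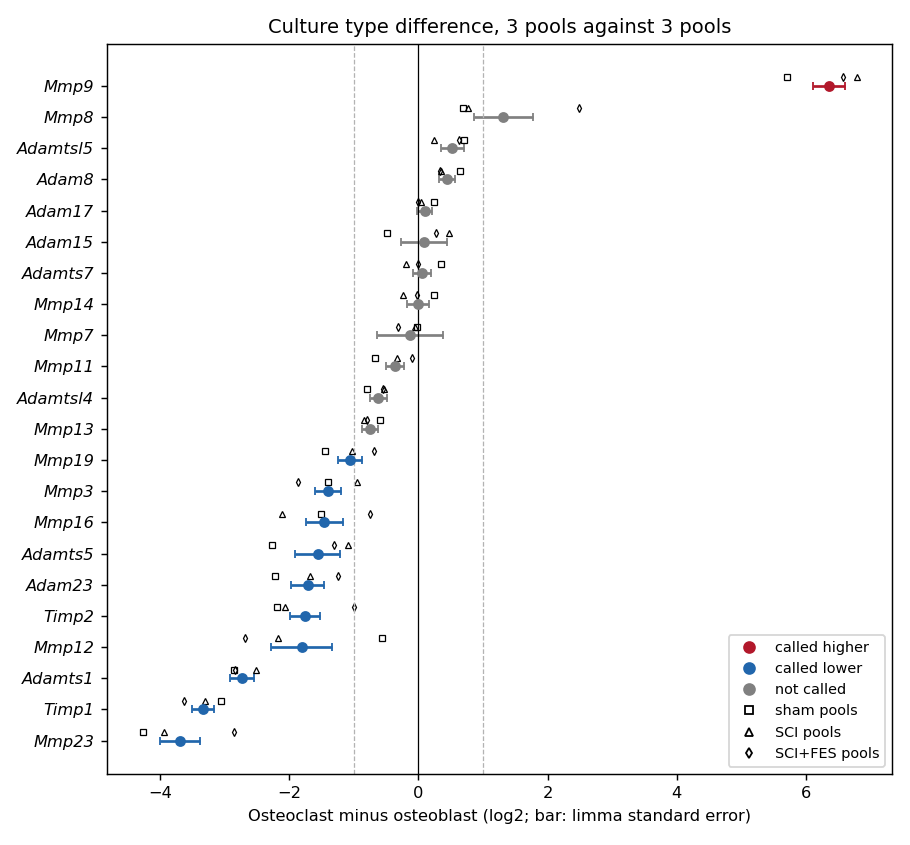
Osteoclast minus osteoblast difference (x axis, log2) of the 22 detected genes (y axis), with the limma estimate and its standard error as filled circles and the difference within each treatment as small open symbols. Mmp9 is the only gene called higher, at 6.35, and 10 genes are called lower, down to -3.69 for Mmp23.

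Several Mmp genes had their signal in the osteoblast cultures. Mmp23, a short membrane-tethered member without the usual hemopexin domain, was at 10.44 and 10.54 on the sham, 10.04 and 10.21 on the SCI and 9.11 and 9.28 on the SCI+FES osteoblast arrays. It was not detected on any osteoclast array, where levels ran from 6.13 to 6.40. A gene detected on no array of one culture type has only a lower bound on its fold, taken against the lowest level of a detected probe on each of those arrays. Mmp23 was at least 7.90-fold lower in osteoclast cultures (-3.69 ± 0.31, adjusted p = 0.000338 by limma). Mmp16, a membrane-type protease, was at 7.88 and 7.67, 8.54 and 8.13, and 7.14 and 7.15 in osteoblast cultures and undetected in osteoclast cultures, where it ran from 6.14 to 6.44. It was at least 1.74-fold lower there (-1.46 ± 0.28, adjusted p = 0.0101), and the SCI+FES osteoblast pool was the nearest to the osteoclast pools.

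Mmp19, a protease of basement membrane proteins, was at 8.28 and 8.38, 7.90 and 8.02, and 7.59 and 7.56 in osteoblast cultures. In osteoclast cultures it was at 6.87 and 6.90, 6.81 and 7.05, and 7.05 and 6.72, with 2 of 6 arrays detected. The difference was -1.06 ± 0.19 (2.08-fold, adjusted p = 0.00754), and -0.87 without the sham osteoblast pool, which is below 2-fold. Mmp3, the stromelysin that also activates other Mmp precursors, was at 7.06 and 7.26, 6.66 and 7.03, and 7.62 and 7.60 in osteoblast cultures, with 5 of 6 arrays detected, and at 5.73 to 5.97 on the osteoclast arrays, with none detected. Mmp3 was at least 1.19-fold lower (-1.40 ± 0.20, adjusted p = 0.00282), so most of its measured difference lies below the detection limit. Mmp13 (-0.75 ± 0.12, adjusted p = 0.0051) was below 2-fold. Mmp11, a stromelysin, was detected in the sham osteoblast pool only and did not pass (-0.37 ± 0.14, adjusted p = 0.0874).

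Mmp12, the macrophage elastase, was detected on every array. It was at 13.99 and 13.92, 13.74 and 13.81, and 14.38 and 14.35 on the sham, SCI and SCI+FES osteoblast arrays. On the osteoclast arrays it was at 13.42 and 13.37, 11.50 and 11.69, and 11.72 and 11.63. The sham osteoclast pool lay nearest to the osteoblast pools and the other osteoclast pools lay far below. The mean difference was -1.81 ± 0.48 (3.51-fold, adjusted p = 0.0303), with -0.56 between the sham pools, -2.18 between the SCI pools and -2.69 between the SCI+FES pools. The call was lost on leaving out any pool but the sham osteoclast pool (adjusted p = 0.059 to 0.101), while without that pool the difference was -2.40 (adjusted p = 0.00105). Of 9 macrophage markers tested, 1 rose and 5 fell in osteoclast cultures. The complement genes C1qa (-3.04), C1qb (-3.03) and C1qc (-3.02) fell, as did Cd163 (-2.06) and Mrc1 (-1.23), while Itgam rose (1.17). Emr1 (1.49), Cd68 (0.74) and Cd14 (-0.08) were not called. The summed normalized intensity of the list was 69400 to 97700 in osteoblast pools against 45300 to 49600 in osteoclast pools. The part of these markers in the Mmp12 difference was not tested.

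Of the ADAMTS proteases that cut aggrecan and versican, 2 of 6 were detected and both fell, against 6.7% of all genes tested. Both were detected in osteoblast pools only and had to be lower in osteoclast pools to pass the detection filter. Adamts1 was at 9.18 and 9.19, 8.43 and 8.77, and 9.18 and 9.19 in osteoblast cultures and at 5.98 to 6.38 in osteoclast cultures, with no array detected there. It was at least 4.10-fold lower in osteoclast cultures (-2.73 ± 0.19, adjusted p = 0.000143). Adamts5 was at 8.85 and 8.59 on the sham osteoblast arrays, 7.39 and 7.42 on the SCI and 7.54 and 7.40 on the SCI+FES arrays, and at 6.03 to 6.49 without detection in osteoclast cultures. It was at least 1.88-fold lower (-1.56 ± 0.35, adjusted p = 0.0166), and the call was lost without the SCI osteoclast pool (adjusted p = 0.0614) or the SCI+FES osteoclast pool (adjusted p = 0.0572). Adamtsl4, an ADAMTS-like protein with no protease domain that binds fibrillin, was detected on no osteoclast array and did not reach the called size (-0.62 ± 0.13, at least 1.25-fold lower, adjusted p = 0.0128). The 2 procollagen N-proteinase genes on the array under their own symbols, Adamts3 and Adamts14, were not detected.

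Adam23, which has lost the catalytic zinc site and acts in cell adhesion, was at 8.61 and 8.52, 8.01 and 8.06, and 7.36 and 7.58 on the sham, SCI and SCI+FES osteoblast arrays. It was undetected in osteoclast cultures at 6.20 to 6.41, at least 2.10-fold lower (-1.71 ± 0.26, adjusted p = 0.00384). None of the 3 detected shedding proteases was called between culture types. Adam17, which releases tumour necrosis factor and ligands of the epidermal growth factor receptor from the cell surface, ran from 10.50 to 10.86 over all 12 arrays (0.10 ± 0.12, adjusted p = 0.569). Adam8, known from leukocytes and osteoclasts, was higher in every osteoclast pool than in any osteoblast pool by less than 2-fold (0.44 ± 0.12, adjusted p = 0.0368). Adam15 gave 0.09 ± 0.36 (adjusted p = 0.873), with opposite signs between the sham pools (-0.48) and the SCI pools (0.47).

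Some other genes were not called either. Mmp14, the membrane-type collagenase, ran from 12.61 to 13.19 over all arrays (-0.01 ± 0.17, adjusted p = 0.965). Mmp7 (-0.13 ± 0.51, adjusted p = 0.864), Adamts7, a protease of cartilage oligomeric matrix protein (0.05 ± 0.14, adjusted p = 0.808), and Adamtsl5 (0.52 ± 0.18, adjusted p = 0.0692) did not pass, although each osteoclast pool was above each osteoblast pool for Adamtsl5. Mmp8, neutrophil collagenase, was detected on 5 of 6 osteoclast arrays and no osteoblast array and fell short of the threshold (1.32 ± 0.45, adjusted p = 0.0693 by limma), with a bound of at least 1.80-fold. Its pools did not overlap, but without the SCI+FES osteoclast pool the difference was 0.74 (adjusted p = 0.0113), below 2-fold, and by the first arrays alone it passed (1.45, adjusted p = 0.0434). In all, 14 of the 22 genes had an adjusted p of at most 0.05 at any size, against 29.8% of all genes tested. The 3 pools of each culture did not overlap for 4 genes that were higher and 13 that were lower in osteoclast cultures, where the shares over all genes were 27.9% and 20.9%, or 48.9% in either direction. All 10 genes detected in osteoblast pools only are among the 13, and Mmp8, detected in osteoclast pools only, is among the 4. The median difference over the 22 was -0.68, against 0.07 over all genes tested. The detection filter acts on this median and on both counts as described.

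Between treatments there was a single pool on each side, so the values below carry no test and no check between animals. A gene was counted by a size rule of at least 2-fold between pool means, with the lowest array of the higher pool above the highest array of the lower pool, and detection in at least 1 of the pools. Each standard error comes from the duplicates and describes array error alone.

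To examine osteoblast cultures after SCI, the SCI pool was set against the sham pool. Of the 21 genes detected there, 3 were lower and 0 higher by the size rule, against 1.41% lower and 2.02% higher over all genes, or 3.43% in either direction. Mmp7, matrilysin, a small protease without a hemopexin domain, was at 8.85 and 9.15 on the sham, 7.42 and 7.48 on the SCI and 8.03 and 8.07 on the SCI+FES arrays, with SCI minus sham at -1.55 ± 0.15 (2.93-fold). Adamts5 was 2.49-fold lower (-1.32 ± 0.13), from the array values given above. Mmp9 was 2.02-fold lower (-1.02 ± 0.04), at the edge of the rule, and below 2-fold by the first arrays alone (-0.98) and in the authors' matrix values (-0.94). The summed intensity of 6 osteoclast markers was 9830 in the sham, 6470 in the SCI and 6060 in the SCI+FES osteoblast pool. Between SCI and sham 0 of 5 measured markers passed the size rule. Markers ran in different directions, with Ctsk at 13.08, 12.42 and 11.99 and Car2 at 7.96, 8.31 and 10.29 as means of these pools. The part of these markers in the Mmp9 value was not tested. The remaining differences ran from -0.59 for Adamts1 to 0.56 for Mmp16, with Timp1 at 0.27, Timp2 at 0.03, Mmp13 at 0.22 and Mmp14 at -0.01. The median over the 21 was -0.10, and -0.02 over all genes. These values came with a summed intensity of osteoblast markers of 9320 in the sham and 15200 in the SCI pool, with 5 of 7 measured markers higher by the size rule, and their part was not tested.

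The SCI+FES osteoblast pool differed from the SCI osteoblast pool by the size rule in 1 of 20 genes. Mmp16 was 2.28-fold lower (-1.19 ± 0.21), against 1.51% of all genes lower and 1.72% higher, or 3.24% in either direction. It had stood higher in the SCI pool than in the sham pool without passing the rule, and by the second arrays alone the difference was -0.98. Mmp23 (-0.93 ± 0.12), Timp2 (-0.76 ± 0.15) and Adam23 (-0.56 ± 0.11) were lower below 2-fold. Mmp3 (0.77 ± 0.18), Mmp7 (0.60 ± 0.03), Mmp12 (0.59 ± 0.04), Adamts1 (0.59 ± 0.17), Adam15 (0.58 ± 0.04) and Timp1 (0.39 ± 0.08) were higher below 2-fold. The median was 0.09, and 0.01 over all genes. The summed intensity of osteoblast markers was 15200 in the SCI and 4340 in the SCI+FES pool, with 6 of 7 measured markers lower by the size rule, and their part in the Mmp16 value was not tested.

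Against the sham pool, the SCI+FES osteoblast pool was lower in 3 of 21 genes and higher in 0, with 3.29% and 4.27% over all genes, or 7.56% in either direction. Mmp23 was 2.45-fold lower (-1.29 ± 0.09), Adamts5 2.38-fold lower (-1.25 ± 0.15) and Adam23 2.13-fold lower (-1.09 ± 0.12, but -0.94 by the second arrays alone). Mmp23 and Adam23 stepped down from sham to SCI to SCI+FES on all arrays, while Adamts5 differed by 0.06 ± 0.07 between the SCI and SCI+FES pools. Mmp7 was at -0.95 ± 0.15, just inside 2-fold, and passed with a common median (-1.13), log2 of the intensity plus 16 (-1.16), an offset of 16 (-1.04) and the second arrays alone (-1.08), while Mmp9 was at -0.75 ± 0.07. Timp1 was at 0.66 ± 0.08 and Timp2 at -0.74 ± 0.15, so the inhibitors lay on opposite sides. The 3 comparisons share their pools and are not independent. The summed intensity of 7 mesenchymal markers was 114000, 102000 and 84500 in the sham, SCI and SCI+FES osteoblast pools. That of 6 T cell markers was 2220, 2480 and 8940, with 1, 5 and 5 of them detected. In the sham pool only Cd8a was detected, and its means were 10.78, 10.59 and 12.54 in the same order. Against sham, 2 of 5 measured T cell markers were higher in the SCI pool by the size rule, with 2.02% over all genes. In the SCI+FES pool 5 of 5 were higher. Osteoblast markers, at 9320, 15200 and 4340, were lower in the SCI+FES than in the sham pool in 3 of 5 measured genes. Their part in these differences was not tested.

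**Figure D3:**
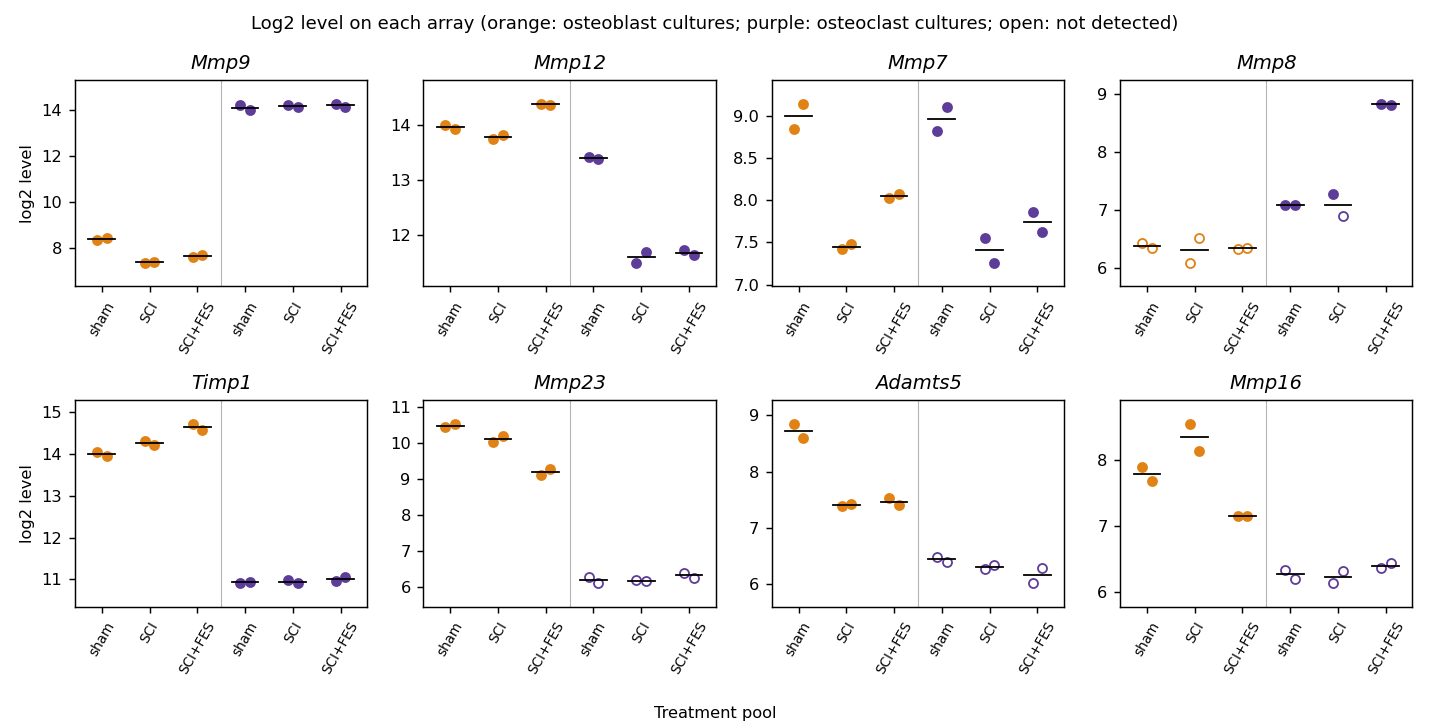
Log2 level (y axis, a scale of its own in each panel) of 8 genes on each of the 2 arrays of every pool (x axis), with a line at the pool mean and open circles where the probe was not detected. Mmp12 and Mmp7 are lower in the SCI and SCI+FES osteoclast pools than in the sham pool, and Mmp8 is high in the SCI+FES osteoclast pool alone.

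In osteoclast cultures, Mmp12 and Mmp7 were lower after SCI, while Mmp9 and the detected Timp genes differed by at most 0.15. Of 12 genes detected there, 2 were lower and 0 higher by the size rule, against 1.87% and 0.966% over all genes, or 2.83% in either direction. Mmp12 was 3.48-fold lower in the SCI pool (-1.80 ± 0.10), from 13.42 and 13.37 to 11.50 and 11.69. Mmp7 was 2.96-fold lower (-1.57 ± 0.21), from 8.83 and 9.11 to 7.55 and 7.26. In osteoblast cultures the same comparison gave -1.55 ± 0.15 for Mmp7 and -0.18 ± 0.05 for Mmp12, and the difference between culture types was not tested. Mmp9 (0.06 ± 0.11), Timp1 (0.02 ± 0.03), Timp2 (0.15 ± 0.03) and Mmp8 (0.00 ± 0.19) differed little, and Mmp14 was at -0.49 ± 0.08. Adam15, which binds integrins through its disintegrin domain, was at 0.98 ± 0.23, just inside 2-fold, with 8.44 and 8.00 on the sham, 9.29 and 9.12 on the SCI and 9.57 and 9.60 on the SCI+FES arrays. It passed, making 1 gene higher, with log2 of the intensity plus 16 (1.18), an offset of 16 (1.08), the authors' matrix values (1.04) and the second arrays alone (1.11). The median over the 12 was -0.20, and 0.02 over all genes.

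Other cell markers also differed between the osteoclast pools, in both directions. The summed intensity of 7 mesenchymal markers was 3410 in the sham pool, with 5 of 7 detected, and 1090 and 1010 in the SCI and SCI+FES pools, with 2 of 7 detected in each. That of 3 erythroid markers was 4390, 2010 and 1700. Among macrophage markers 3 of 8 were higher in the SCI pool (C1qb, C1qc and Emr1) and 0 lower. The labels give no culture day for the SCI osteoclast pool. The part of these in the Mmp12 and Mmp7 differences was not tested.

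The SCI+FES osteoclast pool differed from the SCI osteoclast pool in 1 of 11 genes, against 0.309% of all genes higher and 0% lower. These are pools whose sample identifiers share a number. Mmp8 was 3.33-fold higher (1.74 ± 0.19), at 8.83 and 8.80 in the SCI+FES pool, 7.27 and 6.89 in the SCI pool and 7.08 and 7.08 in the sham pool. The SCI+FES arrays stood well apart from the other 4, and the osteoblast arrays, none detected, ran from 6.09 to 6.52. Of 10 neutrophil markers on the array, 5 were detected in the SCI+FES osteoclast pool, against 2 in the SCI and 3 in the sham pool. Their summed intensity was 6820, 3240 and 2450 in the same order. S100a8, a calcium-binding protein of neutrophils, was at 12.00, 9.83 and 9.31 as pool means, while S100a9, Ltf, Ela2, Prtn3 and Ctsg were detected in no pool. By the size rule 1 of 5 measured markers was higher than in the SCI pool, S100a8 (2.17). Ngp (0.82), Camp (0.57), Mpo (0.27) and Lcn2 (0.17) did not pass, and Camp was at -0.09 against sham. The part of the neutrophil markers in the Mmp8 value was not tested. The other 10 genes differed by -0.08 to 0.38, including Mmp12 (0.08 ± 0.10), Mmp7 (0.33 ± 0.19) and Mmp9 (0.05 ± 0.08). The median over the 11 was 0.18, and -0.01 over all genes.

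Set against sham, the SCI+FES osteoclast pool was lower in 2 and higher in 2 of 12 genes, with 2.42% and 1.74% over all genes, or 4.16% in either direction. Mmp12 was 3.29-fold lower (-1.72 ± 0.05) and Mmp7 2.35-fold lower (-1.23 ± 0.19, but -0.97 by the first arrays alone). It stood at 7.86 and 7.62 on the SCI+FES arrays. Mmp8 was 3.34-fold higher (1.74 ± 0.01). Adam15 was 2.57-fold higher (1.36 ± 0.22), but 0.85 with a common median over all probes, a scaling that put the median of all genes at -0.40. Timp2 was at 0.46 ± 0.07 and Mmp9 at 0.11 ± 0.12. Mmp12 and Mmp7 thus stood below sham in both osteoclast pools from SCI animals, which share the sham pool as their control.

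**Figure D4:**
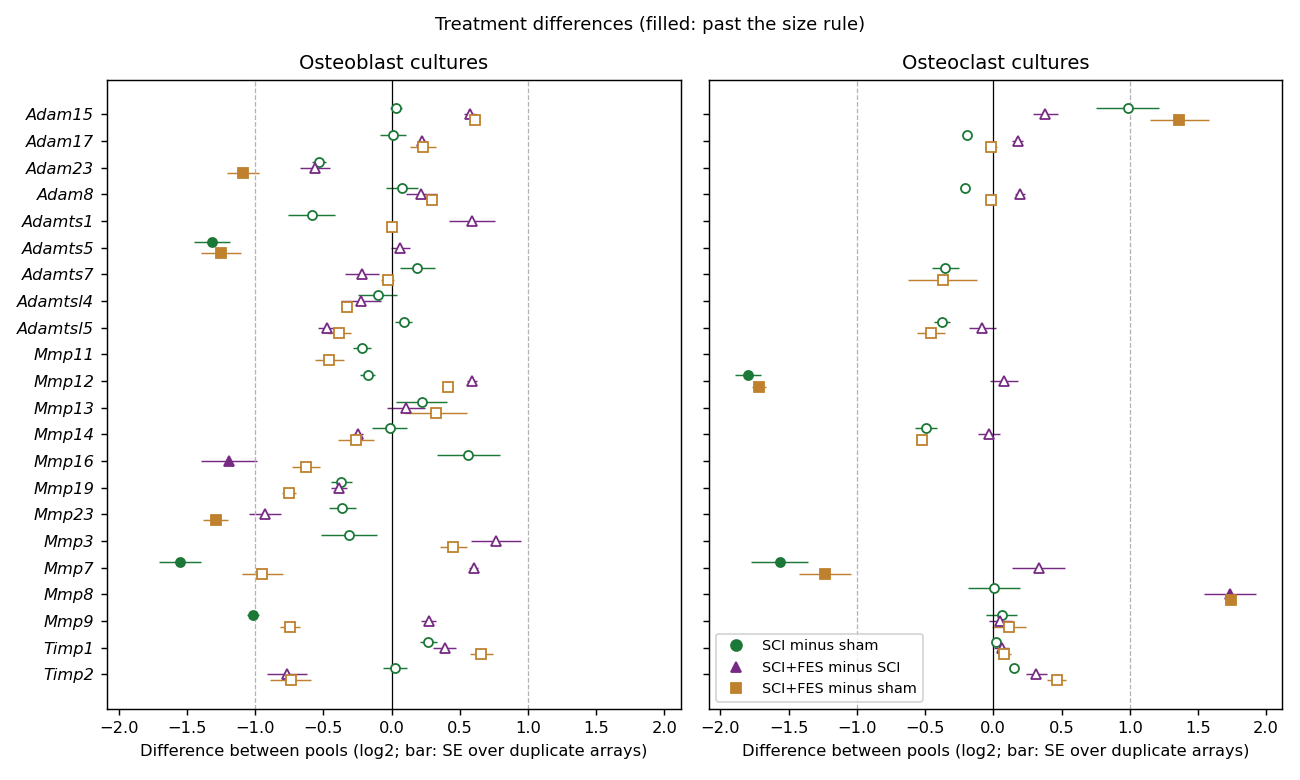
Differences between treatment pools (x axis, log2, with the standard error over duplicate arrays) for each detected gene (y axis) in osteoblast cultures (left) and osteoclast cultures (right), filled where the size rule was passed. Mmp7 lies between -1.57 and -0.95 for SCI and SCI+FES against sham in both cultures, and Mmp8 at 1.74 is the largest positive difference.

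Along the chromosome 8 cluster, Mmp13 and Mmp12 were the only detected genes next to each other, and differences between genes were not tested. Mmp13 and Mmp3 were detected in osteoblast pools only, Mmp3 in the sham and SCI+FES pools, and their osteoclast minus osteoblast differences were -0.85 to -0.59 and -1.86 to -0.95 over the 3 treatments. Mmp12, the neighbour of Mmp13, ranged from -2.69 to -0.56. Mmp8 ranged from 0.69 to 2.48, and Mmp7 from -0.32 to -0.03. Mmp3 and Mmp8 were detected in neither of the SCI pools, so their differences there lie near the detection limit. Mmp13 was at 7.11 and 7.48, 7.54 and 7.48, and 7.48 and 7.75 on the sham, SCI and SCI+FES osteoblast arrays and passed the size rule in no treatment comparison. The promoters printed above hold the AP-1 letters in Mmp13, Mmp12, Mmp3 and Mmp7 and not in Mmp8. A link between these letters and the differences was not tested.

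**Figure D5:**
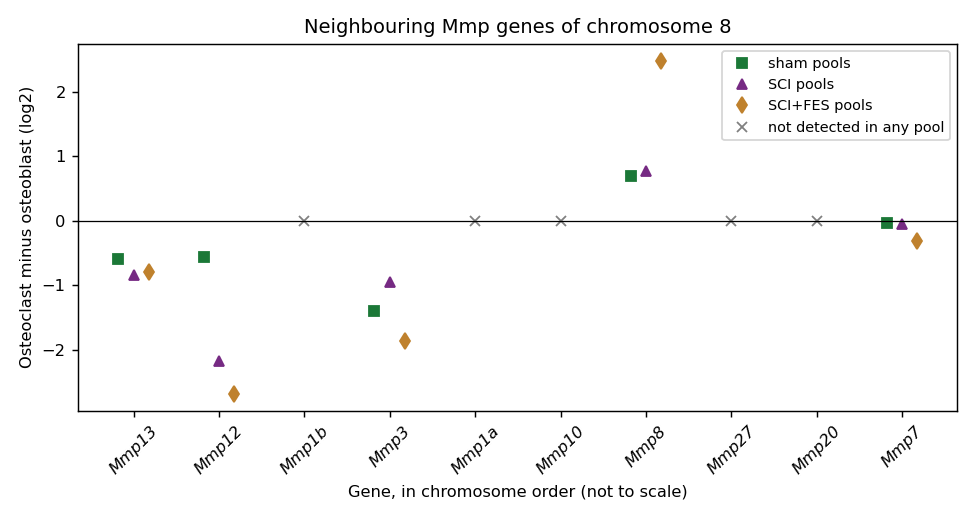
Osteoclast minus osteoblast difference (y axis, log2) within each treatment for the Mmp genes of the chromosome 8 cluster, in chromosome order (x axis, not to scale), with crosses for genes detected in no pool. Mmp8 is above 0 and Mmp13, Mmp12 and Mmp3 are below 0 in all 3 treatments, and Mmp7 is close to 0. Mmp3 and Mmp8 were detected in neither of the SCI pools.

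Genes that activate or restrain the proteases were read from lists of 23, 5 and 16 genes. Of the first, 19 were on the array and 14 were tested between culture types, where 2 rose and 5 fell in osteoclast cultures (median -0.82), against 4.91% and 6.7% of all genes tested (median 0.07). Of the 5, 2 were detected in osteoblast pools only and had to be lower to pass the detection filter. Lcn2, a lipocalin that forms a complex with Mmp9 in humans (3.87 ± 0.28, adjusted p = 0.00017), and the proteoglycan gene Sdc1 (1.39 ± 0.17, adjusted p = 0.00167) rose. Those that fell included the protease inhibitor gene Serpine2 (-3.61 ± 0.50, adjusted p = 0.00263), the plasminogen activator Plat, detected in no osteoclast pool (-2.56 ± 0.28, adjusted p = 0.00109), and the Kunitz inhibitor Tfpi2 (-1.85 ± 0.41, adjusted p = 0.0159). Thbs2, a thrombospondin that helps clear Mmp2, was detected on no osteoclast array and fell by at least 52.4-fold (-6.31 ± 0.13, adjusted p = 3.71e-06). Reck, a membrane-anchored inhibitor of Mmp proteins, did not pass (-0.94 ± 0.31, adjusted p = 0.0632). Of 5 astacin protease genes 2 were tested and neither was called (median -0.34). Of 16 ADAM partners and substrates 9 were tested, with the tetraspanin Tspan5 higher (1.07 ± 0.24, adjusted p = 0.0179) and Tgfa, a substrate of Adam17 that was detected in no osteoclast pool, lower (-2.11 ± 0.26, adjusted p = 0.00171). The median of the 9 was 0.30.

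Among treatments, the genes of the first list that passed the size rule did so in osteoblast cultures only. After SCI, Pcsk6, a proprotein convertase of the family that activates several of these proteases, was higher than in sham (1.82), while Serpine2 was lower (-1.18). In the SCI+FES osteoblast pool Pcsk6 was lower (-2.13) and Tfpi2 higher (1.36) than in the SCI pool. In osteoclast cultures 0 of the genes of the first list passed the rule in any of the 3 comparisons.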

How the data were processed

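Expression was measured in 6 RNA pools on 12 arrays. For each array the deposited table holds, per the file headers, the probes' intensity and detection p-value. Of an array's intensities, 26.8% to 30.4% were below 0, as after background subtraction by the authors' software, whose name the sources used here do not give. The authors' series matrix holds a straight-line rescaling of each array's intensity (slope 0.731 to 1.42, medians 13.8 to 19.1) by an unknown rule.

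Intensities were corrected with limma's normexp (offset 50), quantile-normalized and set to log2, which understates folds of dim genes. Of 61 symbols 60 are current in RefSeq's table. Duplicate arrays were averaged, and limma (3.58.1, R 4.3.3) compared 3 pools with 3. Treatments got the size rule. Because duplicates are technical, the p-values measure only the spread between pools. All 22 detected genes are named, and those called are given on every array, or by their range in a culture where they were not detected. Scripts were tested on simulated data. Figures used Python 3.11.15 and matplotlib 3.10.9. The genes, lists and rules were chosen with earlier results of these data known. Alternatives were other offsets and scalings, detection filters, probe averaging, single arrays, a treatment block and leaving out each pool. Results of some genes in the lists are not reported here.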

Additional observations from a re-analysis of the deposited data

Results flagged for a closer look

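Mmp12 differed between culture types in its direction in the SCI+FES pool against the sham pool. It was higher in osteoblast cultures (0.41) and lower in osteoclast cultures (-1.72), with both arrays of each pool on the same side. The difference between the culture types was not tested, since each value rests on 1 pool a side. The lower value was measured against the sham osteoclast pool. This pool also held the highest summed intensity of mesenchymal markers among the osteoclast pools (3410, against 1090 and 1010). In the same comparison 2 of 9 measured macrophage markers were higher by the size rule in osteoblast cultures, against 4.27% of all genes. In osteoclast cultures 4 of 8 were higher, against 1.74%, and 0 were lower in either culture. The part of these markers in the values was not tested.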

How the results depend on the processing

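The number of genes called between culture types was 11, and 9 to 11 on leaving out each pool, 11 to 12 with a single array of each pool, 15 with log2 of the intensity plus 16 (adding Adamtsl4, Mmp8, Mmp11 and Mmp13), 13 with normexp at an offset of 16 (adding Mmp8 and Mmp13) and 11 with treatment as a block, which pairs the cultures of a treatment; the replicate number of an array marks a technical duplicate and pairs nothing, and the block changed no call. The count for SCI+FES against SCI in osteoblast cultures, 1, was 3 with log2 of the intensity plus 16, 2 with normexp at an offset of 16 and 0 to 1 with single arrays. That for SCI+FES against sham in osteoblast cultures, 3, was 6 with log2 of the intensity plus 16. Mmp8 between culture types passed with log2 of the intensity plus 16 (2.68, adjusted p = 0.025) and with the offset of 16 (1.79, adjusted p = 0.045). A common median over all probes moved the median of all genes to -0.22 and -0.16 for SCI and SCI+FES against sham in osteoblast cultures, and to -0.35 and -0.40 for SCI+FES against SCI and against sham in osteoclast cultures. Over single genes and settings, 1190 values kept their side of the threshold, 20 gained a call and 14 lost one, and all kept their direction where called. These hold for the alternatives run. The cause of these changes was not tested. The 39 undetected genes are limited by signal over background.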
